A study of Rattus norvegicus with 4 samples.

Results

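Transcripts of protein kinase C (PKC) isoforms and of a regulatory subunit of protein kinase A (PKA) were followed in cultured rat cortical neurons after depolarization. The members were the probe sets that the platform annotation assigns to Prkca, Prkcb, Prkcd, Prkce, Prkcz or Prkar2b, and they numbered 7 of the 1322 probe sets in the table. They covered 4 of the 720 genes with a symbol of their own on the array, with 3 probe sets for Prkcb, 2 for Prkcz, 1 for Prkca and 1 for Prkar2b. No probe set carried the symbol of Prkcd or Prkce in this annotation, and these 2 genes were not analysed here. The probe set M12492mRNA#1_at was to be included if the annotation named it as a PKA type II regulatory subunit, but the annotation used here does not list it, so it is given below by its identifier alone and is counted among no members.

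Cortex was taken from rat embryos at day 17 and the neurons were cultured for 14 days in Neurobasal medium with the B27 supplement. The KCl group then received 25 mM KCl for 4 h, and the control group received phosphate-buffered saline for the same 4 h. Each group had 2 arrays, named KCl 1, KCl 2, control 1 and control 2. Titles and treatment protocols give these groups, while the description label words all 4 samples as unstimulated. Separate cultures within a group are not mentioned in the labels, and the p-values therefore reflect array-to-array spread that may be technical. The samples are bulk cultures, in which fewer cells of a type and less RNA per cell cannot be told apart.

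PKC is a family of serine/threonine kinases that act downstream of phospholipase C. The conventional isoforms, among them PKCα (Prkca) and PKCβ (Prkcb), need calcium and diacylglycerol for activity, and the atypical isoform PKCζ (Prkcz) needs neither. In brain, Prkcb makes the variants βI and βII by alternative splicing at the end of its coding sequence, and Prkcz also yields PKMζ, a kinase without the regulatory domain, from a promoter inside the gene. PKA is held inactive by regulatory subunits until cAMP binds them, and Prkar2b encodes RIIβ, a regulatory subunit abundant in neurons. Calcium entry through voltage-gated channels, which raised potassium opens, can feed into both kinase systems.

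The upstream regions of Prkcz and Prkar2b are shown because all 3 of their probe sets read lower on both KCl arrays than on both control arrays. Of all tested probe sets 36.5% did so, as did the 3 of Prkcb, which had no entry among the upstream sequences. The regions shown are the 250 bases before the annotated gene start in RefSeq's rat assembly GRCr8, 5′ to 3′, and 3 of the 4 member genes matched the sequence table. The Prkcz window therefore does not hold the promoter inside the gene that yields PKMζ. Capitals mark the CCAAT box (CCAAT) and the GC box (GGGCGG), each read on both strands. Both genes lie on the minus strand, Prkcz at chr5:171212675-171212924 and Prkar2b at chr6:54381412-54381661.
Prkcz: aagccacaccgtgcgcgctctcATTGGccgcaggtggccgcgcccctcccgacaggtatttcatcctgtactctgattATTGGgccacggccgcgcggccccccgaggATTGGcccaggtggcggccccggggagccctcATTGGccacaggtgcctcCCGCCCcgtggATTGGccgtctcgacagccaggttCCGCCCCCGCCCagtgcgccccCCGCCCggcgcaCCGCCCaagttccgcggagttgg
Prkar2b: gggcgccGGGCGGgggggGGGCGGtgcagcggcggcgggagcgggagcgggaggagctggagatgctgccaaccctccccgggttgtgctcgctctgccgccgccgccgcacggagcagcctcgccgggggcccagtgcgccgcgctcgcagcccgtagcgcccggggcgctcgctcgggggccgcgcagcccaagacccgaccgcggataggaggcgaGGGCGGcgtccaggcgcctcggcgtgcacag
The Prkcz window held 5 CCAAT boxes and 5 GC boxes, and the Prkar2b window held no CCAAT box and 3 GC boxes. The window of Prkca (chr10:93787328-93787577, minus strand) held no CCAAT box and 2 GC boxes. A CCAAT box was present in 34% of the 33469 upstream windows of this length and a GC box in 30.5%. The full cAMP response element (TGACGTCA), its core (TGACG, contained in the full element) and the AP-1 site (TGANTCA) were searched on both strands and had 0 matches in all 3 windows, against 1.59%, 18.2% and 6.34% of all windows with a match. The GC content was 72% for Prkcz, 80.8% for Prkar2b and 74.8% for Prkca, beside a median of 51.2% over all windows. These matches describe letters in the windows, and a missing match says only that those letters are not there.

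After KCl, 1 probe set of Prkcb and 1 of Prkcz were lower, and no member was higher at the adjusted threshold. The Prkcz probe set J04532_at fell 2.08-fold and the Prkcb probe set K03486_s_at fell 1.37-fold. The other 5 member probe sets, among them those of Prkar2b and Prkca, did not pass. All 7 lay above the filter that left out the dimmest 25% of probe sets, so all were tested among 947. Calls are made at an adjusted p below 0.05 by limma with Benjamini-Hochberg adjustment over these 947. Of the 947, 5.28% were called lower and 5.49% higher, and of the 7 members 2 were called lower and 0 higher. Both KCl arrays lay below both control arrays for 6 of the 7, where 36.5% of all tested probe sets did so, and 3 of those 6 read the same gene. For the seventh, of Prkca, they lay above, as for 21.4% of all tested. The median log2 change was −0.26 over the 7 members and −0.10 over all 947.

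**Figure D1:**
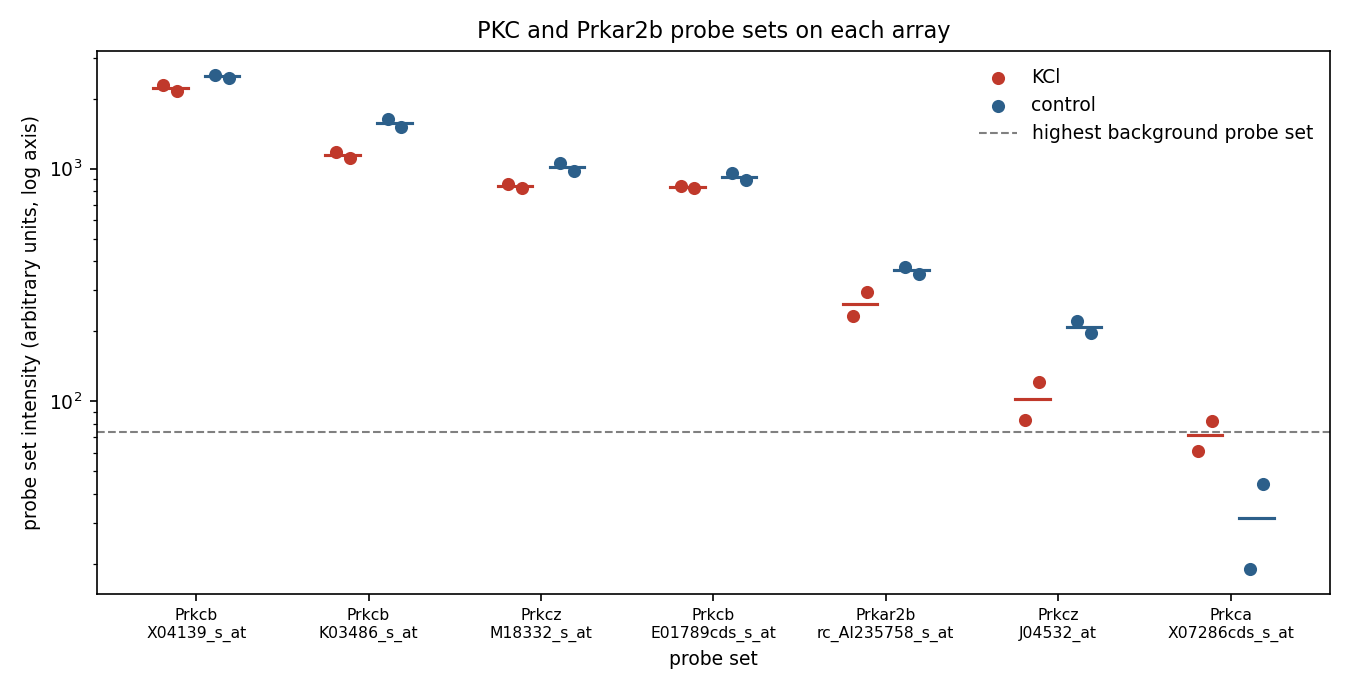
Intensity (arbitrary units, log axis) of the 7 member probe sets, with a point per array, KCl left of control, and short bars at the mean of 2 arrays. The dashed line is the highest background value, 73.7; the order of the 7 signals was the same on all 4 arrays, and both KCl points lie below both control points for every probe set except Prkca, where they lie above.

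The conventional isoform Prkcb had 3 probe sets, of which 1 passed. K03486_s_at read 1175.7 and 1113.2 on KCl arrays 1 and 2, against 1629.9 and 1507 on control arrays 1 and 2. The gap between the groups was wider than the gap between the arrays of either group. Its mean was 1144 ± 44 after KCl and 1568 ± 87 in control (SD, n = 2 arrays each), which is −0.45 in log2 with an SE of 0.11 (limma adjusted p = 0.038).

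X04139_s_at, the brightest probe set of Prkcb, read 2293.7 and 2157.6 on the KCl arrays, against 2514.7 and 2462.5 on the control arrays. The groups did not overlap, but the log2 change of −0.16 ± 0.10 did not pass (limma adjusted p = 0.37), and its 95% interval ran from −0.40 to 0.08. E01789cds_s_at read 844.3 and 824.9 on the KCl arrays, against 954.6 and 893.1 on the control arrays. Here too all KCl values were below the control values, and the log2 change of −0.15 ± 0.12 did not pass (limma adjusted p = 0.50). Both changes were close to the median of all tested probe sets.

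The ratios between these Prkcb probe sets on each array restate the same values. K03486_s_at was 1.39 and 1.35 times as bright as E01789cds_s_at on the KCl arrays, and 1.71 and 1.69 times as bright on the control arrays. X04139_s_at was 1.95 and 1.94 times as bright as K03486_s_at on the KCl arrays, and 1.54 and 1.63 times on the control arrays. Both ratios separated the groups, with differences of log2 change of −0.31 and 0.29, and neither difference passed (exact permutation p = 0.33, the smallest that 2 arrays against 2 allow; adjusted p = 0.37 over 21 pairs). The ratio of X04139_s_at to E01789cds_s_at, at 2.72 and 2.62 after KCl and 2.63 and 2.76 in control, overlapped between the groups. The files do not say which splice variant of Prkcb each probe set reads.

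**Figure D2:**
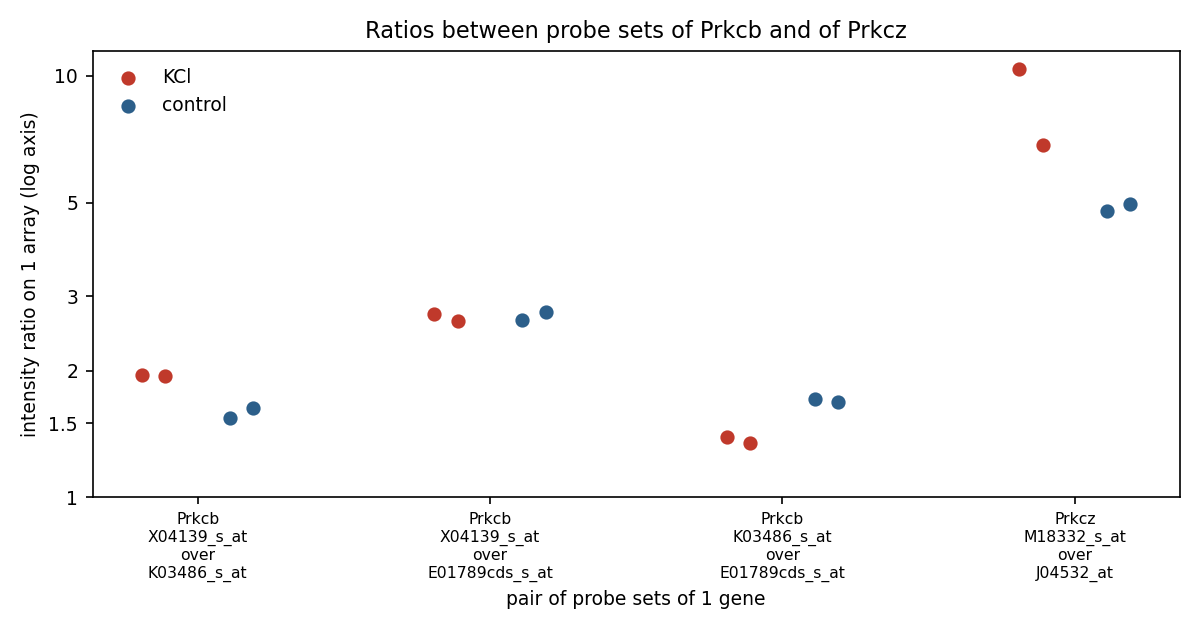
Ratio of intensities of 2 probe sets of a gene on each array (log axis), KCl points left of control points. The ratios that involve K03486_s_at of Prkcb and the ratio of the Prkcz probe sets separate the groups, and that of X04139_s_at to E01789cds_s_at, between 2.62 and 2.76, does not.

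The atypical isoform Prkcz had 2 probe sets. J04532_at read 83.1 and 120.9 on KCl arrays 1 and 2, against 220.3 and 196.4 on control arrays 1 and 2. All 4 values lay above the highest background value of 73.7, and the KCl values were close to it. The mean was 102 ± 27 after KCl and 208 ± 17 in control (SD, n = 2 each), which is −1.05 in log2 with an SE of 0.26 (limma adjusted p = 0.037). Among the 947 changes it was the 33rd from the largest fall.

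The brighter probe set of Prkcz, M18332_s_at, read 861.1 and 827.6 on the KCl arrays, against 1053.4 and 976 on the control arrays. The groups were apart, and the log2 change of −0.26 ± 0.12 did not pass (limma adjusted p = 0.21), with a 95% interval from −0.54 to 0.01. M18332_s_at was 10.4 and 6.85 times as bright as J04532_at after KCl, and 4.78 and 4.97 times as bright in control. The difference of log2 change between the 2 probe sets was 0.79. This difference was 0.49 without KCl 1 and 1.09 without KCl 2, and J04532_at was close to background after KCl. Its exact permutation p of 0.33 (adjusted p = 0.37) is the smallest that 2 arrays against 2 allow, so the difference could not pass. The files do not say which of them, if either, also reads PKMζ.

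The hexokinase control transcript, whose 3′ to 5′ ratio is used as a measure of RNA integrity, also read lower on the KCl arrays. Its 3′ probe set read 711 and 802.3 on the KCl arrays, against 1080 and 1123.2 on the control arrays, and its 5′ probe set read 285.6 and 300.2 after KCl and 479.2 and 561.1 in control, so both ends were lower. The 3′ signal divided by the 5′ signal gave 2.49 and 2.67 on the KCl arrays, against 2.25 and 2.00 on the control arrays. The ratio of Gapdh was 1.19 and 1.17 after KCl and 1.17 and 1.23 in control, and that of β-actin 1.083 and 1.084 after KCl and 1.08 and 1.12 in control. Of these 3 ratios only that of hexokinase separated the groups. Among all tested probe sets, 36.5% were lower after KCl without overlap, and 54.8% of the ratios between 2 of them separated the groups. The part of the hexokinase difference in the falls of K03486_s_at and J04532_at was not tested.

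Both calls were lost when a control array was left out. Without control 1 the log2 change was −0.40 for K03486_s_at and −0.97 for J04532_at, and without control 2 it was −0.51 and −1.14, with adjusted p between 0.23 and 0.28 for these 4 values in limma. Without KCl 1 the change of J04532_at was −0.78 (limma adjusted p = 0.066), while K03486_s_at passed at −0.49 (limma adjusted p = 0.018). Without KCl 2 both probe sets passed. Neither probe set passed when the replicate number was a block, when dim probe sets were tested too, or when the variance had no intensity trend.

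Prkca, the other conventional isoform, was near background. X07286cds_s_at read 61 and 82.1 on the KCl arrays, against 19 and 44.2 on the control arrays. Both control values and 1 KCl value lay at or below 73.7, the highest value of the background probe sets. The KCl values were above the control values, with a log2 change of 1.29 ± 0.56 that did not pass (limma adjusted p = 0.19) and a 95% interval from −0.01 to 2.58. A fold against a group within background depends on that background, and the change was 0.68 without control 1 and 1.90 without control 2.

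Prkar2b, the RIIβ subunit of PKA, was measured by rc_AI235758_s_at, with 232 and 293.2 on the KCl arrays, against 378.7 and 352.4 on the control arrays. The groups did not overlap, and the KCl arrays differed by more than the control arrays did. The mean was 263 ± 43 after KCl and 366 ± 19 in control (SD, n = 2 each), and the log2 change of −0.49 ± 0.18 (SE) did not pass (limma adjusted p = 0.13, unadjusted p = 0.026). Without KCl 2 it passed, at −0.66 (limma adjusted p = 0.022), and without KCl 1 the change was −0.32 (limma adjusted p = 0.42).

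The probe set M12492mRNA#1_at has no gene in the annotation. It read 2643.5 and 2898.7 on the KCl arrays, against 3625.1 and 4040.8 on the control arrays. It fell 1.38-fold, with a log2 change of −0.47 ± 0.11 (limma adjusted p = 0.031). M12492mRNA#1_g_at, which shares its accession, read 304.6 and 369.6 after KCl and 455.5 and 399.3 in control, and its change of −0.35 ± 0.17 did not pass (limma adjusted p = 0.24). The call of M12492mRNA#1_at was also lost without control 1, without control 2 and without KCl 1, with limma adjusted p of 0.17, 0.27 and 0.062.

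**Figure D3:**
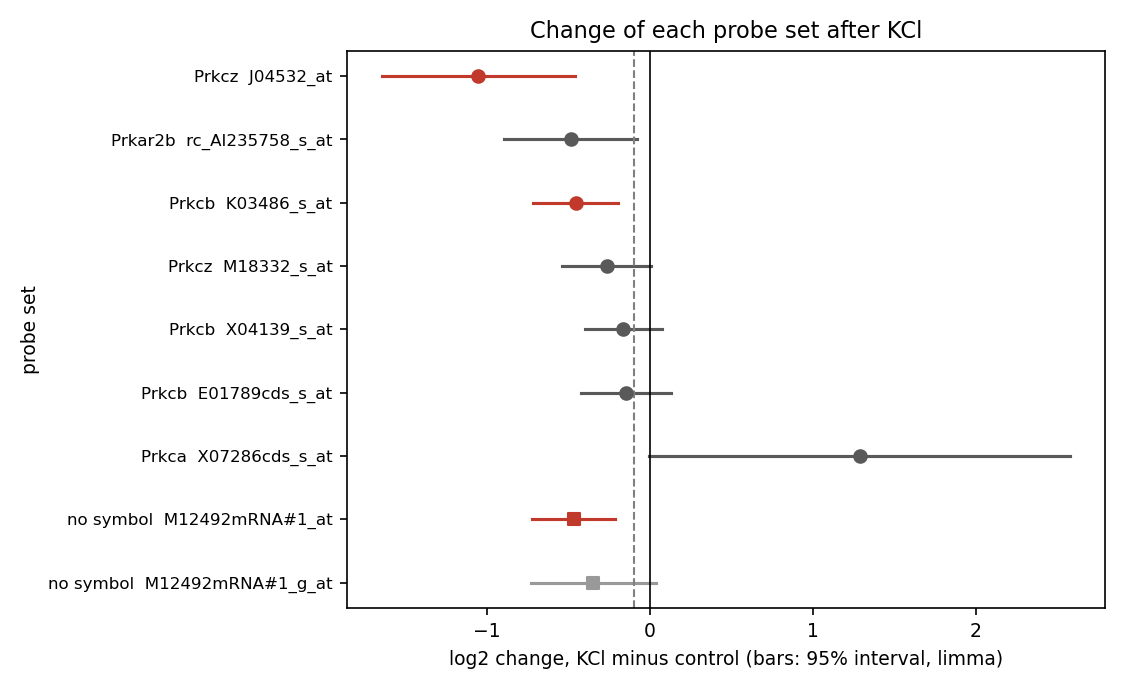
Log2 change (KCl minus control) of the 7 member probe sets and of 2 probe sets without a symbol (squares), with 95% intervals from limma; red marks an adjusted p below 0.05, and the dashed line is the median of all 947 tested probe sets, −0.10. The called falls are J04532_at at −1.05, M12492mRNA#1_at at −0.47 and K03486_s_at at −0.45.

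By signal, the order of the 7 member probe sets was the same on all 4 arrays. X04139_s_at of Prkcb was the brightest, followed by K03486_s_at of Prkcb, M18332_s_at of Prkcz, E01789cds_s_at of Prkcb, rc_AI235758_s_at of Prkar2b, J04532_at of Prkcz and X07286cds_s_at of Prkca. The neighbours M18332_s_at and E01789cds_s_at lay closest, at 844 ± 24 and 835 ± 14 after KCl, within the SD of the first, and at 1015 ± 55 and 924 ± 43 in control. Probes differ in how strongly they bind, so this is an order of signals and not of transcript amounts, and the distance of Prkcb from Prkcz or Prkca cannot be read from it as a ratio of transcripts.

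By change, all 21 pairs of member probe sets were compared through their ratio on each array. The ratio separated KCl from control in 19 pairs, as it did in 54.8% of the 447931 pairs of all tested probe sets. The 21 pairs come from 7 probe sets and are not independent, and 6 of them hold Prkca, whose control values lay within background, so no size is given for those. By the exact two-sided permutation test the lowest adjusted p over the 21 pairs was 0.37, so no pair passed. The log2 changes of X04139_s_at of Prkcb and M18332_s_at of Prkcz were 0.10 apart, and from 0.063 to 0.14 apart as each array was left out. Those of K03486_s_at of Prkcb and the Prkar2b probe set were 0.03 apart, from −0.18 to 0.24 as each array was left out, and their ratio overlapped between the groups.

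Astrocyte and inhibitory neuron markers shifted on the same arrays. Of 7 tested astrocyte markers 6 rose and 0 fell, and their summed intensity was 12551 and 9973.8 after KCl, against 5483.9 and 5219.9 in control. All 3 tested inhibitory neuron markers (Gad1, Slc32a1 and Sst) fell, with sums of 2479.9 and 2896.7 after KCl and 8291.1 and 7776.2 in control. Of 9 neuron markers 1 rose and 0 fell, and the sums were 30835.5 and 31445.1 after KCl and 32420.6 and 33720.6 in control. No marker of the 4 for oligodendrocytes or the 2 for microglia passed in limma, and their unadjusted p was below 0.05 in 0 cases, and in 0 cases with an ordinary t statistic. No marker was at 0, while Slc1a2, Mbp, Mog, Itgam and Ccl2 lay within background on all arrays. Gja1, among the astrocyte markers that rose, lay within background on both control arrays (32.9 and 41.1). The part of these shifts in the member changes was not tested.

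The other genes of the pathway came from lists that held 27 tested genes, none of them another PKC isoform. None of the 27 passed in limma. Before adjustment, limma gave 4 of the 27 a p below 0.05, and an ordinary t statistic gave 4. Among all 947 tested probe sets the same counts were 242 by limma and 157 by the ordinary t statistic. The 27 genes thus held no larger share than the array as a whole. Their median log2 change was −0.15, beside −0.10 over all tested probe sets. Of the PKA subunits and partners 2 were tested. Prkar2a, which encodes the RIIα subunit, read 169.9 and 207.5 after KCl and 215.9 and 224.8 in control, a log2 change of −0.23 that was −0.086 without KCl 1 and −0.37 without KCl 2. Pkia, an inhibitor of the PKA catalytic subunit, had −0.07, and its sign turned without KCl 1 (0.16).

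Upstream of PKC, 2 of 2 tested genes did not pass. Plcb1, a phospholipase C that releases diacylglycerol, read 1012.2 and 1108.8 after KCl and 1576.9 and 1236.6 in control, a log2 change of −0.40 (limma adjusted p = 0.13). The groups did not overlap. Without KCl 2 the change was −0.46 and passed (limma adjusted p = 0.023), without KCl 1 it was −0.33, and without control 1 it was −0.22 (limma adjusted p = 0.18 and 0.44). Pld2, a phospholipase D, had 0.10, with KCl 1 (70) and control 1 (63.3) below the highest background value. Among 4 G protein subunit genes Gnb1 had 0.20 (0.11 without KCl 1) and Gnb2 −0.16 (−0.096 without control 2), and among 4 phosphodiesterase genes, whose enzymes break down cAMP, Pde4a had −0.10 and Pde4d −0.17.

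Of 4 genes for PKC substrates and binding proteins, Gap43, a growth-cone protein that PKC phosphorylates, had a log2 change of −0.16 (−0.086 without control 2 and −0.098 without KCl 1), and Rack1, a scaffold that binds activated PKC, had 0.12. Among 11 other kinase and calcineurin genes the smallest p-values belonged to Camk2d, a CaM kinase II subunit, with −0.36 (limma adjusted p = 0.075), and to Grk3, a receptor kinase, with −1.12 (limma adjusted p = 0.11). Grk3 read 47 and 101 after KCl and 162 and 138.6 in control, with KCl 1 below the highest background value, and its change was −0.57 without KCl 1 and −1.67 without KCl 2, when it passed (limma adjusted p = 0.00051).

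**Figure D4:**
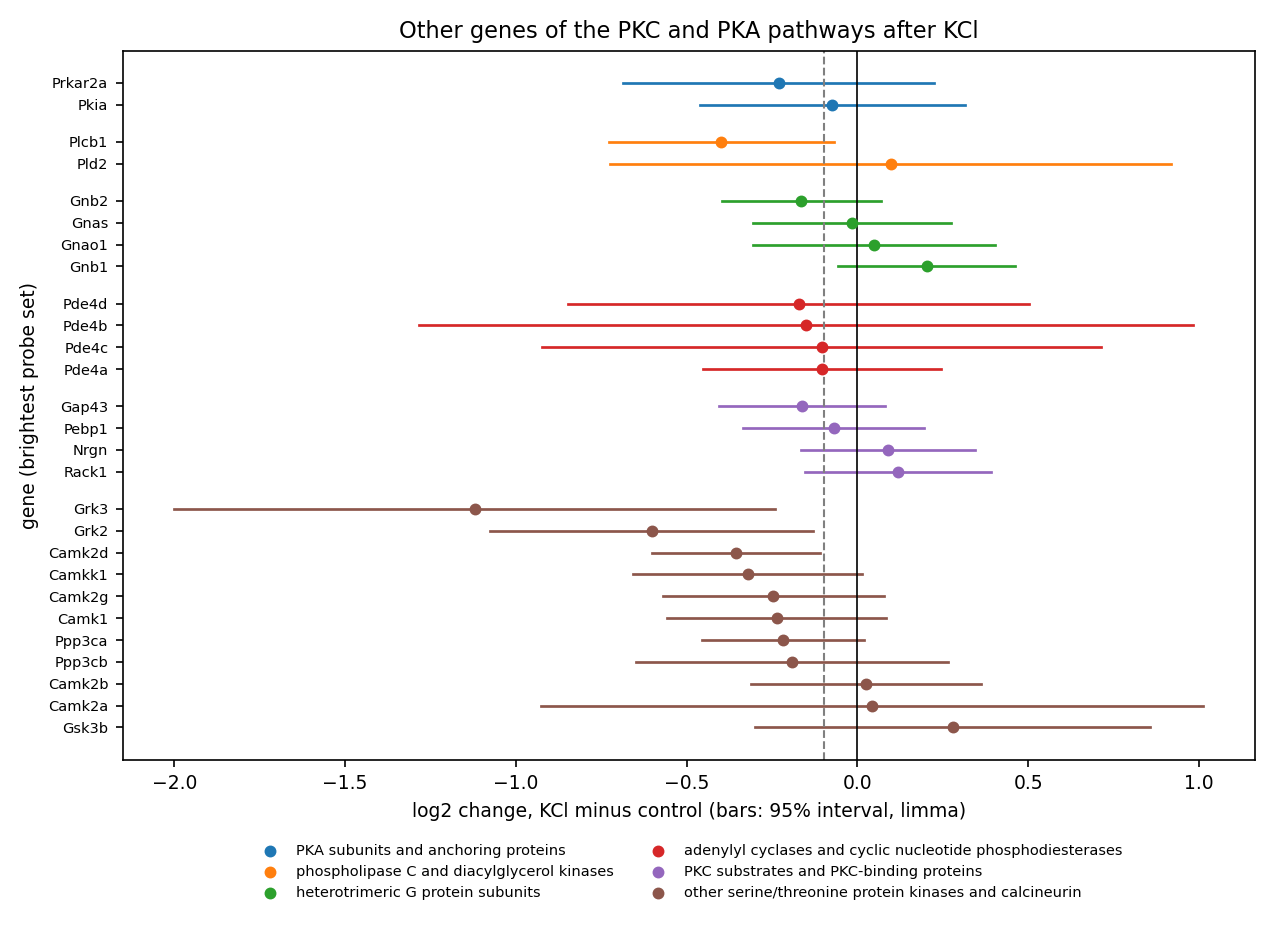
Log2 change (KCl minus control) of 27 other genes of the PKC and PKA pathways through their brightest probe set, with 95% intervals from limma, coloured by list; the dashed line is the median of all tested probe sets, and Camk2a and Pde4b lay within background on all arrays. None passed, and the values run from −1.12 for Grk3 to 0.28 for Gsk3b.

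For the brightest probe set of each member gene, the other tested gene with the most similar course over the 4 arrays was found as the smallest root mean square difference of log2 values centred on the control mean. It was Pdgfa for Prkcb (difference 0.0061), Sstr2 for Prkcz (0.032), Cacna1e for Prkar2b (0.030) and Bcl2l11 for Prkca (0.30). Cacna1e read 69.2 on KCl 1, below the highest background value of 73.7. Bcl2l11 read 46.7 on KCl 1 and 23.4 and 35.8 on the control arrays, also below 73.7. The likeness rests on 4 arrays, and the nearest course to Prkca was the least close of the 4.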

How the data were processed

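Biotin-labelled cRNA from 5 µg of total RNA was hybridized to 1-colour Affymetrix arrays, per the labels' protocols. The authors deposited linear intensities per probe set, in arbitrary units. How probes were summarised and arrays scaled is not given in the sources used here. Since the 2% trimmed means of the arrays lay between 502.0 and 502.4, the values were used as deposited and taken to log2.

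Gene symbols came from the platform annotation, which gave 1 symbol to 1137 probe sets, several to 8 and none to 118, besides 59 Affymetrix control probe sets. The controls and the dimmest 25% of the rest (316 probe sets) were left out, and 947 were tested with limma 3.58.1 in R 4.3.3 (lmFit, then eBayes with an intensity trend), KCl against control, two-sided, with Benjamini-Hochberg adjustment. Background came from 19 bacterial and yeast probe sets (median 9.05, highest 73.7). Genes in lists entered through their brightest probe set, and the named list genes are those that passed and the 2 with the smallest p per list. The number of arrays limits the precision, with a median SE of 0.21. Same-numbered arrays did not deviate together (r = −0.03 over 947 probe sets), so the numbers were not used as pairs. The members and lists were chosen with earlier results of these data known. Alternatives were other scalings, filters, a pseudocount of 16, other variance models, a replicate block and leaving out each array.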

Additional observations from a re-analysis of the deposited data

How the results depend on the processing

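The falls of K03486_s_at, J04532_at and M12492mRNA#1_at kept their direction in all 12 alternatives each and passed in 5 each. Of all tested probe sets, 268 had an unadjusted limma p below 0.05 with dim ones kept, 4 of them members. Without the intensity trend 202 did (2 members), with the replicate block 209 (4 members), and with an ordinary t statistic 157 (1 member). The number of member probe sets called, 2 as reported, was 1 with quantile normalization and 0 in each of the settings above. With each array left out it ran from 0 to 3. Over all probe sets, 102 were called as reported, 21 without the intensity trend, 0 with an ordinary t statistic (157 with an unadjusted p below 0.05), 50 with the replicate block, and between 11 (without control 2) and 178 (without KCl 2) with an array left out. With an array left out, only the other group's 2 arrays give a spread, and the lone array is assumed to vary alike. The arrays share replicate numbers and no stated pairing, and their deviations had an r of −0.03. As each array was left out, the sign of the log2 change turned for Pld2 (−0.18 to 0.37), Rack1 (−0.027 to 0.26), Pkia (−0.31 to 0.16) and Pde4d (−0.53 to 0.19), and for the differences of X04139_s_at minus E01789cds_s_at (−0.049 to 0.017) and K03486_s_at minus rc_AI235758_s_at (−0.18 to 0.24). The causes were not tested. Signal over background limits the folds of Prkca, Grk3, Pld2, M25348_s_at of Pde4a and L27059_s_at of Pde4d, which had values below 73.7. J04532_at lay above that value on all arrays and close to it after KCl.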

Other observations

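Several pathway genes had less bright probe sets with values unlike that of the brightest one, and these differences were not tested. M25348_s_at of Pde4a, a gene for a cAMP phosphodiesterase, read 94.9 and 59.9 after KCl and 148.6 and 151.1 in control, a log2 change of −0.99 that did not pass (limma adjusted p = 0.080), beside −0.10 for the brightest probe set. L27059_s_at of Pde4d, of the same enzyme family, read 55.9 and 93.7 after KCl and 42.1 and 11.6 in control, all but 1 value below the highest background of 73.7. Its log2 change was 1.71 and did not pass (limma adjusted p = 0.18), beside −0.17 for the brightest probe set. The probe set rc_AI009268_at of Camk2d had 0.36 (limma adjusted p = 0.52), beside −0.36. All 5 probe sets of Gnb1 had changes above 0, from 0.06 to 0.38.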
